A study of Mus musculus with 8 samples.

Results

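The genes described here encode the machinery of synaptic vesicle exocytosis: synaptotagmins, synapsins, syntaxins, syntaxin-binding proteins, VAMPs, SNAP proteins, Rab3 GTPases, SV2 proteins, synaptophysin, complexins and RIMs. The families were picked with earlier results of these data known. Their genes were taken by name, as the symbols of those families in the deposited probe annotation (Syt, Syn, Stx, Stxbp and Vamp followed by a number, the listed members Snap23, Snap25, Snap29, Snap47 and Snap91, Rab3a to Rab3d, Sv2a to Sv2c, Cplx1 to Cplx4, Rims1 to Rims4, and Syp). That gave 68 genes with 79 probes, of 23669 named genes with 25517 probes. The brightest probe in that annotation stands for each gene. Not every name fits the theme by function: Snap91 (AP180) is a clathrin adaptor of vesicle retrieval and no SNARE, and several syntaxins and VAMPs serve other membrane traffic.

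Expression was measured in mouse embryos at day E14.5 of the genotype Pitx3(gfp/+), in which an allele of Pitx3, a transcription factor gene that marks midbrain dopaminergic neurons in the brain, carries a Gfp reporter. The ventral midbrain was cut into a rostral and a caudal piece, brought into single-cell suspension with papain and sorted for Gfp on either of a pair of instruments (a Cytopeia Influx or a BD FACS Aria III), giving 4 rostral and 4 caudal pools with 5 to 7 embryos in each. Every pool, labelled with Cy3, was hybridised on a 2-colour array against a common Cy5-labelled reference made of the Gfp-negative cells of those embryos. All groups, the reference included, thus carry the Pitx3(gfp/+) genotype, no wild-type embryos enter any comparison, and the reference mixes many cell types of the dissected tissue.

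Synaptic vesicles release transmitter when a vesicle SNARE (a VAMP) zips together with plasma membrane SNAREs (a syntaxin and a SNAP protein). Munc18 proteins hold the syntaxin ready, complexins clamp the partly assembled complex, and synaptotagmins sense the calcium that triggers fusion. Before that, synapsins keep vesicles in reserve, and Rab3 GTPases, with some of the RIMs as partners, bring them to the active zone. SV2 and synaptophysin are integral proteins of the vesicle membrane. Midbrain dopaminergic neurons use this machinery at axonal varicosities and also for release from their dendrites. At E14.5 these neurons are young and still extending axons.

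Promoters of members that were higher in rostral than in caudal pools (below called regional members) are shown first, since those 9 genes carry the regional comparison. The RefSeq promoter table (GRCm38.p6; 250 bases before to 50 bases after a listed start) held 68 promoters of 52 of the 68 genes, and 14 promoters of 7 of the 9. Cplx1, Syn1 and Syp are the 3 of the 9 with a single listed start, and their windows are printed 5′ to 3′ on the strand of the gene, with capitals for GC boxes (GGGCGG or its reverse complement) and for a cAMP response element (CRE, TGACGTCA). The windows are chr5:108549978-108550277, minus strand, for Cplx1; chrX:20920869-20921168, minus strand, for Syn1; and chrX:7638330-7638629, plus strand, for Syp.
Cplx1: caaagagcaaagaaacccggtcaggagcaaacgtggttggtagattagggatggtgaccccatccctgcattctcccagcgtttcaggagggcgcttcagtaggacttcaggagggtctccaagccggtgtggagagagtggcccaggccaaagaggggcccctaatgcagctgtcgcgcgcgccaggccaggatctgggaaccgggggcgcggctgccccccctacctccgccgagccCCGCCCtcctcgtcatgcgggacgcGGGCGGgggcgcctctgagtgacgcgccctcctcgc
Syn1: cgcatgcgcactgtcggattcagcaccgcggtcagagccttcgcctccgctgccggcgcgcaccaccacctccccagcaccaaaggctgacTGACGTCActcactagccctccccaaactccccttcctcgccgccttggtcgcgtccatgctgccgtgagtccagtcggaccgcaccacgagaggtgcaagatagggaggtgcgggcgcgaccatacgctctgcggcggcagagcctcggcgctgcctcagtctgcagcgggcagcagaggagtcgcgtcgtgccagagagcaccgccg
Syp: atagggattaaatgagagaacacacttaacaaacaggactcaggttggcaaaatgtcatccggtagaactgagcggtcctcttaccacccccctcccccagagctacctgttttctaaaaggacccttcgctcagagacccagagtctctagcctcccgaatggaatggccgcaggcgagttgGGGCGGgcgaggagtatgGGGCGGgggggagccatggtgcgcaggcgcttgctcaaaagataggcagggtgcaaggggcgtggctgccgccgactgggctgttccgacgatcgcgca

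The GC content of these windows was 67.0% for Cplx1, 68.3% for Syn1 and 59.0% for Syp, against a median of 52.7% over the 32851 promoters of the table. Cplx1 and Syp each held 2 GC boxes and no CRE. Syn1 held a CRE that begins at position -159 from the start, and no GC box. On either strand, GC boxes were found in 64.7% of the 68 member promoters (44) and in 35.7% of all promoters, and in 8 of the 14 promoters of regional members. The CRE was in 1 of the 68 (1.47%) against 1.79% of all, and the NBRE (AAAGGTCA), the element bound by Nr4a2, was in 0 of the 68 against 1.51% of all. No motifs overlapped in the printed windows. These are letter matches in fixed windows, with no binding data behind them.

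The 8 arrays lay on 1 slide and were scanned together. Signal stood well above background for 62.5% to 70.4% of 55681 probes on the Cy3 side and for 54.0% to 63.5% on the Cy5 side. Pairs of arrays had correlations of 0.756 to 0.848 between their log2 ratios, across probes, which are not independent replicates. The sorted cells carried the dopaminergic markers, of which 12 of 13 were higher than in the reference (Lmx1b, at 0.19, had an adjusted p = 0.0534 in limma). All 8 tested markers of progenitors and radial glia, all 3 of pericytes and all 5 of red blood cells were lower, as were 4 of 5 endothelial, 5 of 6 motor, 3 of 3 serotonergic and 5 of 7 GABAergic markers, with Gad2 at -0.09 and Slc32a1 at -0.28 on the log2 scale. Gata2 is counted in both the serotonergic and the GABAergic list. Not all other lists were lower: of 3 microglial markers none was called in limma (0 at an unadjusted p below 0.05, median 0.20), and the glutamatergic Slc17a6 at 0.67 and Slc17a8 at 0.20 were called higher, with Pou4f1 and Pou4f2 lower. Of 10 pan-neuronal markers, Snap25 among them, 8 were called higher and 2 lower, with a median of 0.38. Replicates are separate pools of embryos, so p-values measure the spread between pools, and precision is limited by there being 8 arrays.

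Values below are log2 ratios of sample over reference unless a difference is named, and pools are given in the order 1 to 4. Of the 68 genes, 62 were tested, being well above background on at least 4 of 8 arrays. With rostral and caudal pools weighted equally and set against the reference, limma called 34 members higher and 12 lower at an adjusted p below 0.05, and 16 were not called. Over all 17932 genes tested, 34.2% were called higher and 35.9% lower, together 70.1%, so a call in itself is common here. Their median ratio was 0.22, against 0.00 over all genes tested. All 8 pools lay above 0 for 28 members (23.9% of all genes) and below 0 for 9 (27.1% of all genes). Changes of at least 2-fold were fewer: 6 members were higher (3.26% of all genes), namely Syt17, Snap91, Sv2b, Syt4, Syt16 and Stx1a, and 4 were lower (9.37% of all genes), namely Stx4a, Syt6, Vamp8 and Cplx3.

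The split between directions depended on the scaling. With the scanner's own processed signals 41 members were higher and 11 lower, and with each array centred on its median in place of loess 44 were higher and 8 lower. Median centring also moved the median of all genes from 0.00 to 0.13 and raised the share of higher genes among all calls from 48.8% to 62.0%, with 55.0% by the processed signals. The reference counts as 1 control sample, so its own variation does not enter the test. Dyes were never swapped, so a dye effect is part of every ratio. In pooled cells fewer expressing cells and less RNA per cell cannot be told apart.

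**Figure D1:**
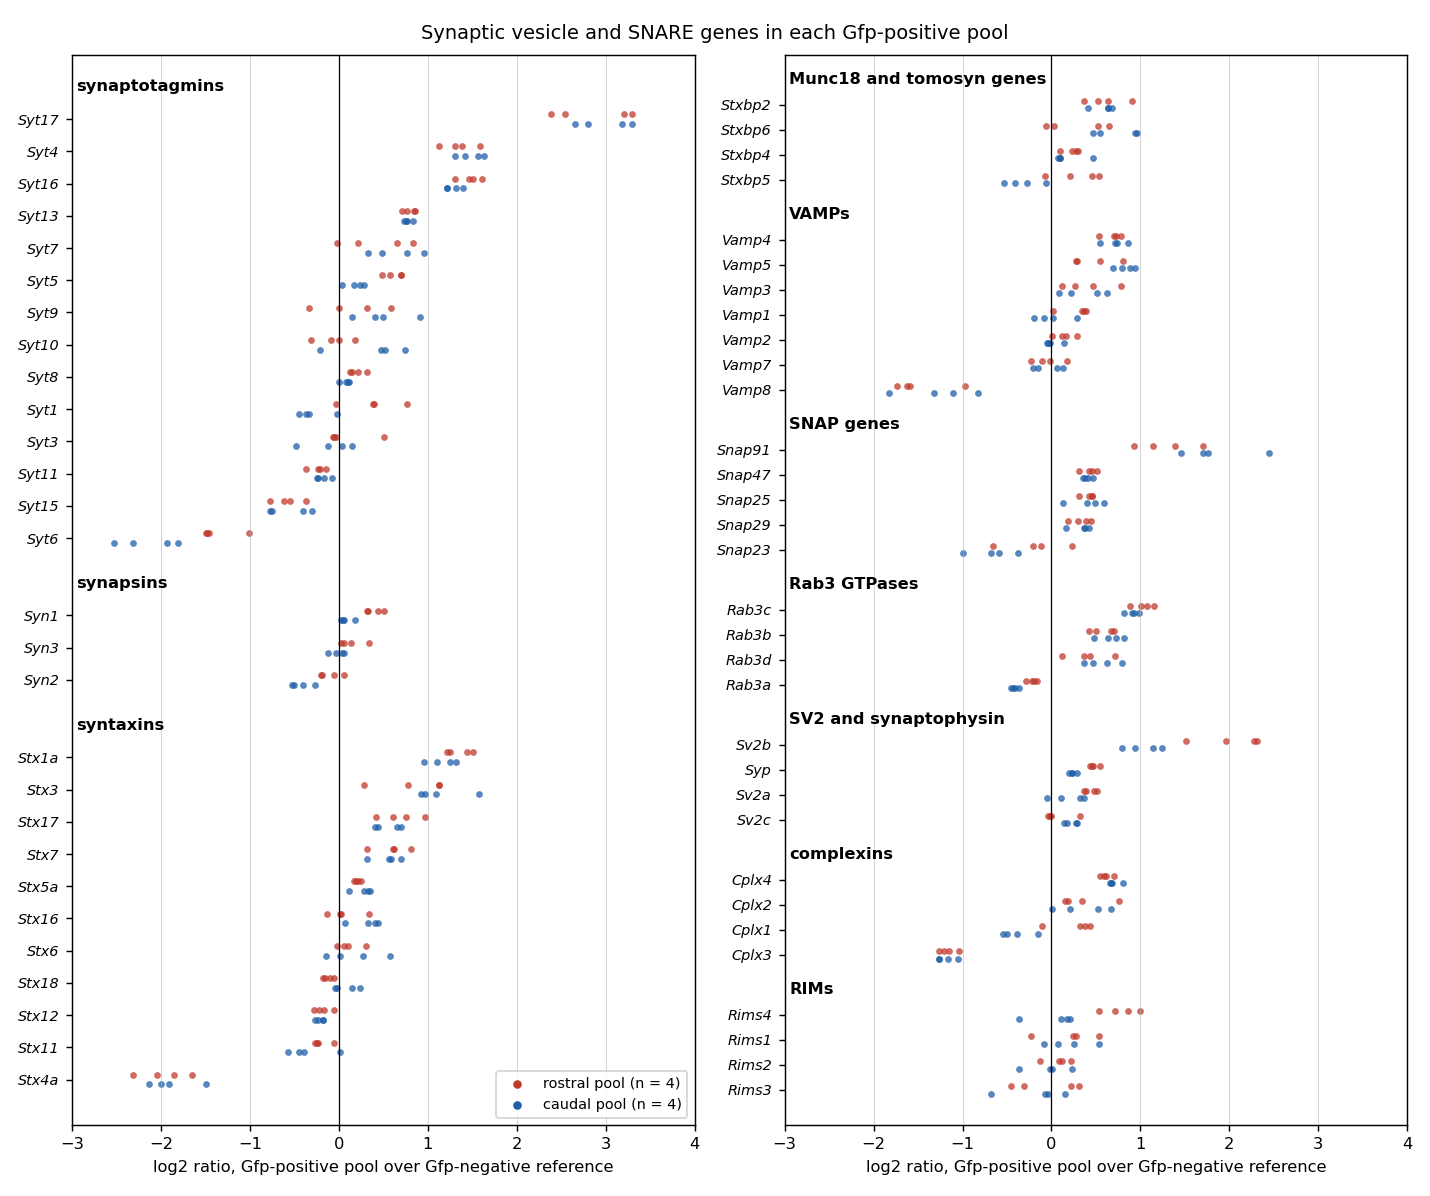
Log2 ratio of each Gfp-positive pool over the Gfp-negative reference (x axis) for 60 of the 62 tested members, grouped by role and ordered by mean ratio. Each dot is 1 pool, red rostral and blue caudal (n = 4 each). Syt17 lies at 2.39 to 3.29 in all 8 pools and Stx4a at -2.32 to -1.50, while most other members sit within 1 log2 unit of 0.

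Synaptotagmins, the calcium sensors and their relatives, covered the widest range of any family. Of 14 tested, 8 were called higher and 3 lower. Syt17, an atypical synaptotagmin without a transmembrane segment, had ratios of 2.54, 3.21, 2.39 and 3.29 in the rostral pools and 3.18, 2.65, 3.29 and 2.80 in the caudal pools. All 8 pools lay far above 0 and the 2 parts overlapped fully; the mean was 2.92 (SE 0.12, 7.57-fold, adjusted p = 2.1e-08). It was the member with the largest ratio to the reference. At the other end Syt6, a synaptotagmin known from exocytosis in sperm, had -1.46, -1.48, -1.49 and -1.01 in rostral and -2.53, -1.81, -1.93 and -2.32 in caudal pools. Every pool was below the reference, the caudal pools more so, with a mean of -1.75 (SE 0.09, a 3.37-fold lower level, adjusted p = 6.0e-08).

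Between these ends, Syt4, a synaptotagmin of dense-core vesicles, was at 1.41 (SE 0.06, adjusted p = 3.4e-08), Syt16, another atypical member, at 1.38 (SE 0.04), and Syt13 at 0.78 (SE 0.02). Syt13 varied little, its 8 pools lying between 0.71 and 0.85. Syt7, a high-affinity calcium sensor, was at 0.53 and Syt5 at 0.40, both called higher. The chosen probe of Syt7 was well above background in the reference on only 1 of 8 arrays, and a brighter probe gave 0.68. Syt9 at 0.32 and Syt8 at 0.14 passed the threshold narrowly (adjusted p = 0.0327 and 0.0334). In the reference, Syt8 was well above background on only 2 of 8 arrays. Syt11 at -0.21 and Syt15 at -0.57 were called lower. Not called were Syt1, the sensor of fast synchronous release, at 0.04 (95% interval -0.14 to 0.22), Syt3 at -0.01 and Syt10 at 0.16.

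Of the vesicle membrane proteins, 3 of 4 were called higher and none lower. Sv2b, an SV2 glycoprotein, had ratios of 2.31, 2.28, 1.51 and 1.96 in rostral pools and 0.94, 1.24, 0.79 and 1.14 in caudal pools. Both parts were above the reference, the lowest rostral pool still above the highest caudal pool, and the mean was 1.52 (SE 0.10, 2.87-fold, adjusted p = 6.3e-07). Its paralog Sv2a was lower on this scale at 0.31 (SE 0.05, adjusted p = 0.000638). Sv2c, the third paralog, had -0.02, 0.00, -0.04 and 0.32 in rostral and 0.14, 0.27, 0.29 and 0.17 in caudal pools. Its pools scattered around a small positive value, 0.14 (95% interval -0.01 to 0.29, adjusted p = 0.082), which was not called. Syp, the vesicle protein synaptophysin used widely as a synaptic marker, was at 0.36 (SE 0.03, adjusted p = 1.1e-06).

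Synapsins, which hold the reserve pool of vesicles, went different ways. Syn1 had ratios of 0.32, 0.33, 0.51 and 0.44 in rostral and 0.06, 0.02, 0.18 and 0.05 in caudal pools. It was above the reference in all 8 pools, with a mean of 0.24 (SE 0.03, 1.18-fold, adjusted p = 5.0e-05). Syn2 had -0.20, 0.06, -0.05 and -0.19 in rostral and -0.27, -0.40, -0.53 and -0.51 in caudal pools. It was called lower at -0.26 (SE 0.04, adjusted p = 0.000449), but median centring put it at 0.01 and ended the call. A second, dimmer annotated probe of Syn2 gave -0.80 (adjusted p = 0.000703 in limma over probes). Syn3, at 0.06 (95% interval -0.09 to 0.21), was not called.

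Among the Rab3 GTPases, which sit on the vesicle, 3 of 4 were called higher and 1 lower. Rab3c had ratios of 1.15, 1.01, 0.88 and 1.07 in rostral and 0.91, 0.82, 0.93 and 0.98 in caudal pools. These 8 values lay close together around a mean of 0.97 (SE 0.03, 1.96-fold, adjusted p = 3.7e-09). Rab3b was at 0.62 (SE 0.04) and Rab3d at 0.48 (SE 0.08). Rab3a, the isoform most studied at central synapses, had -0.22, -0.20, -0.16 and -0.29 in rostral and -0.41, -0.36, -0.43 and -0.45 in caudal pools. All 8 pools were below the reference by a small, even margin, with a mean of -0.32 (SE 0.02, adjusted p = 5.5e-07); by the processed signals this was -0.06 (adjusted p = 0.0436) and with median centring -0.55.

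VAMPs, the SNAREs of the vesicle side, gave 3 higher and 1 lower of 7. Vamp4, a SNARE of the trans-Golgi network and endosomes, had 0.70, 0.78, 0.53 and 0.73 in rostral and 0.86, 0.71, 0.55 and 0.74 in caudal pools. The 2 parts overlapped and the mean was 0.70 (SE 0.05, 1.62-fold, adjusted p = 5.9e-07), but a second, dimmer probe gave -0.01 (adjusted p = 0.919). Vamp8 (endobrevin), an endosomal SNARE of secretory cells, had -0.97, -1.59, -1.74 and -1.62 in rostral and -0.83, -1.83, -1.11 and -1.32 in caudal pools. It was below the reference in every pool, with a mean of -1.38 (SE 0.12, a 2.60-fold lower level, adjusted p = 4.1e-06). Vamp5 at 0.65 and Vamp3 at 0.39 were called higher. Vamp2, the main synaptobrevin of synaptic vesicles, was at 0.08 (95% interval -0.01 to 0.17) and Vamp1, its close paralog, at 0.14 (-0.03 to 0.31), neither called. Both were called higher by the processed signals (0.16 and 0.25) and with median centring (0.32 and 0.49), and Vamp2 also without rostral pool 3 (0.10, adjusted p = 0.0471). Vamp7, at -0.05, was not called, and median centring put it at 0.31 (adjusted p = 0.00432).

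Syntaxins gave 6 higher and 4 lower of 12. Stx1a, the neuronal plasma membrane syntaxin, had ratios of 1.25, 1.21, 1.51 and 1.44 in rostral and 1.32, 0.96, 1.25 and 1.10 in caudal pools. Every pool was near or above a 2-fold excess and the mean was 1.25 (SE 0.06, 2.39-fold, adjusted p = 8.7e-08). Stx4a (syntaxin 4), a plasma membrane syntaxin of non-neuronal secretion, had -1.65, -2.32, -2.04 and -1.86 in rostral and -1.91, -2.13, -1.50 and -2.0 in caudal pools. By this probe it had the lowest ratio of the members, a mean of -1.92 (SE 0.09, a 3.80-fold lower level, adjusted p = 3.9e-08), with the parts overlapping, while a brighter probe gave -0.33.

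Of the other syntaxins, Stx3, which acts at apical membranes and ribbon synapses, was at 0.98 (SE 0.11), Stx17, a syntaxin of autophagosomes, at 0.62, Stx7, of late endosomes, at 0.56, the Golgi syntaxin Stx5a at 0.24 and Stx16 at 0.19, all called higher. Stx11 at -0.28 and the endosomal Stx12 at -0.20 were called lower; with median centring Stx12 was at -0.04 and no longer called. Stx6 at 0.14 and Stx18 at -0.02 were not called, although median centring put Stx18 at 0.19 (adjusted p = 0.00618). A brighter probe of Stx6 gave 0.21 and was called higher (adjusted p = 0.00048 in limma over probes).

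In the SNAP group all 5 members were called, 4 higher and 1 lower. Snap91 (AP180) had ratios of 1.14, 1.70, 1.39 and 0.93 in rostral and 1.46, 1.70, 2.44 and 1.76 in caudal pools. All pools were well above the reference, with a mean of 1.56 (SE 0.12, 2.96-fold, adjusted p = 1.2e-06). Snap23, the relative of Snap25 found outside neurons, had -0.66, -0.12, 0.23 and -0.21 in rostral and -0.38, -0.59, -0.68 and -1.0 in caudal pools. Its caudal pools were all below the reference while the rostral pools straddled it, and the mean was -0.42 (SE 0.10, adjusted p = 0.00353), or -0.06 and not called with median centring. Snap25, the SNAP of synapses, was at 0.40 (SE 0.06), Snap47 at 0.41 and Snap29 at 0.33. A dimmer probe of Snap47 gave 0.06 and was not called (adjusted p = 0.292 in limma over probes).

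The Munc18 and tomosyn genes, whose proteins bind syntaxins, gave 3 higher and none lower of 5. Stxbp2 (Munc18-2) had 0.64, 0.36, 0.90 and 0.52 in rostral and 0.68, 0.41, 0.63 and 0.64 in caudal pools. All pools were above the reference, with a mean of 0.60 (SE 0.06, 1.51-fold, adjusted p = 1.8e-05), but another, brighter probe gave -0.47 and was called lower (adjusted p = 0.000402). Stxbp6 (amisyn) was at 0.51 and Stxbp4 at 0.21, both called higher. Stxbp5 (tomosyn), an inhibitor of SNARE assembly, had 0.53, -0.07, 0.21 and 0.46 in rostral and -0.27, -0.53, -0.41 and -0.06 in caudal pools. The mean over both parts was -0.02 (95% interval -0.22 to 0.18), with rostral pools mostly above and caudal pools all below 0; median centring put the mean at 0.30 (adjusted p = 0.0139).

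Complexins, the clamps of the SNARE complex, gave 2 higher and 1 lower of 4. Cplx4 had 0.59, 0.61, 0.70 and 0.54 in rostral and 0.68, 0.66, 0.67 and 0.80 in caudal pools. It was above the reference in all of them, with a mean of 0.66 (SE 0.06, 1.58-fold, adjusted p = 5.4e-06). Cplx3, known like Cplx4 from ribbon synapses of the retina, had -1.26, -1.21, -1.15 and -1.04 in rostral and -1.27, -1.16, -1.05 and -1.27 in caudal pools. Those 8 values were below the reference and close together, with a mean of -1.18 (SE 0.06, a 2.26-fold lower level, adjusted p = 6.7e-08); by the processed signals it was -2.30. Cplx2, at 0.36 (SE 0.08, adjusted p = 0.00364), depended on the probe, as described further down. Cplx1 was at -0.07 and not called; median centring put it at 0.17 (adjusted p = 0.0468).

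The RIM family gave 1 called member of 4. Rims4, a short RIM, had 0.71, 0.86, 0.53 and 0.99 in rostral and -0.36, 0.11, 0.21 and 0.17 in caudal pools. The rostral pools were all above every caudal pool, and the mean was 0.40 (SE 0.08, 1.32-fold, adjusted p = 0.00189). Rims3 had the lowest mean of the family, with -0.46, 0.31, -0.31 and 0.22 in rostral and 0.15, -0.68, -0.07 and -0.04 in caudal pools. These values scattered on both sides of 0 and gave -0.11 (95% interval -0.38 to 0.16, adjusted p = 0.43). Rims1, at 0.20, and Rims2, at 0.02, were not called, but leaving out rostral pool 3 raised Rims1 to 0.27 (adjusted p = 0.0238). Another annotated probe of Rims1 gave 0.36 (adjusted p = 0.0122 in limma over probes). In the reference that probe was well above background on 0 of 8 arrays.

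Several calls near the threshold rested on single pools. Stx16 was not called without caudal pool 1, 2 or 4 or rostral pool 4 (0.14 to 0.18, adjusted p = 0.0517 to 0.0689). Stxbp4 was lost without caudal pool 4 or rostral pool 1, 2 or 4 (0.16 to 0.21, adjusted p = 0.0502 to 0.0699), Syt8 without caudal pool 2, 3 or 4 or rostral pool 1 or 2 (0.12 to 0.14, adjusted p = 0.0641 to 0.0809), and Syt9 without caudal pool 1, 2 or 3 or rostral pool 2 or 4 (0.24 to 0.33, adjusted p = 0.0537 to 0.0897). Syt10, not called with all pools, reached 0.26 (adjusted p = 0.0185) without caudal pool 1. The other called members named above kept their calls in each of the 8 fits that left out 1 pool.

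The 6 members that were not tested were dim by the probe that stands for them; Stx2 and Stx8 each have another, brighter probe, described further down. The probes of Stx19, Stx8 and Syt12 were not well above background in any pool. Those of Stx2 and of Syt2, a calcium sensor of hindbrain synapses, were so in 1 caudal pool each. Syt14 reached that level in 3 caudal pools, in 0 rostral pools and on 0 arrays in the reference channel. Its ratios, not tested, ran from 0.15 to 1.01 in caudal and from -0.12 to 0.17 in rostral pools.

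Taken by part, with the same reference on both sides, 34 members were higher and 8 lower in the rostral pools against the reference (28.7% and 30.9% of all genes, together 59.6%), and 29 were higher and 14 lower in the caudal pools (27.2% and 30.7% of all genes, together 57.8%). For the caudal pools the split was 33 to 11 by the processed signals and 37 to 8 with median centring. Where the parts straddled the reference, the 2 sides are as follows. For Syt1 the rostral mean was 0.38 (adjusted p = 0.0159) and the caudal mean -0.29 (adjusted p = 0.0465). Cplx1, which clamps the complex at fast synapses, was at 0.26 (adjusted p = 0.0396) and -0.39 (adjusted p = 0.00521). Stxbp5 was at 0.28 (adjusted p = 0.075) and -0.32 (adjusted p = 0.0492).

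The comparison of rostral with caudal pools asks whether the 2 parts of the dopaminergic field differ in this machinery. Of the 62 members, 9 were called higher in rostral pools and 0 lower, against 3.20% of all 17465 genes tested called higher, 2.57% lower and 5.77% changed. At an unadjusted p below 0.05 there were 18, against 18.2% of all genes. All 4 rostral pools lay above all 4 caudal pools for 11 members (6.12% of all genes) and below for 1, Stx18 (5.78% of all genes). The median difference over the members was 0.02, against 0.01 over all genes, with 36 positive and 26 negative values. The 9 were Sv2b, Syt6, Rims4, Syt1, Cplx1, Syt5, Syn1, Syp and Rab3a. By family they are 3 synaptotagmins, a complexin, a RIM, a Rab3, a synapsin and 2 vesicle membrane proteins. No syntaxin, VAMP, SNAP or Munc18 gene was among them (at an unadjusted p below 0.05 in limma, 1 syntaxin, 1 VAMP, 2 SNAP genes and 2 Munc18 or tomosyn genes differed). With so few genes in each family and 5.77% called over all genes, nothing is read from their absence.

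**Figure D2:**
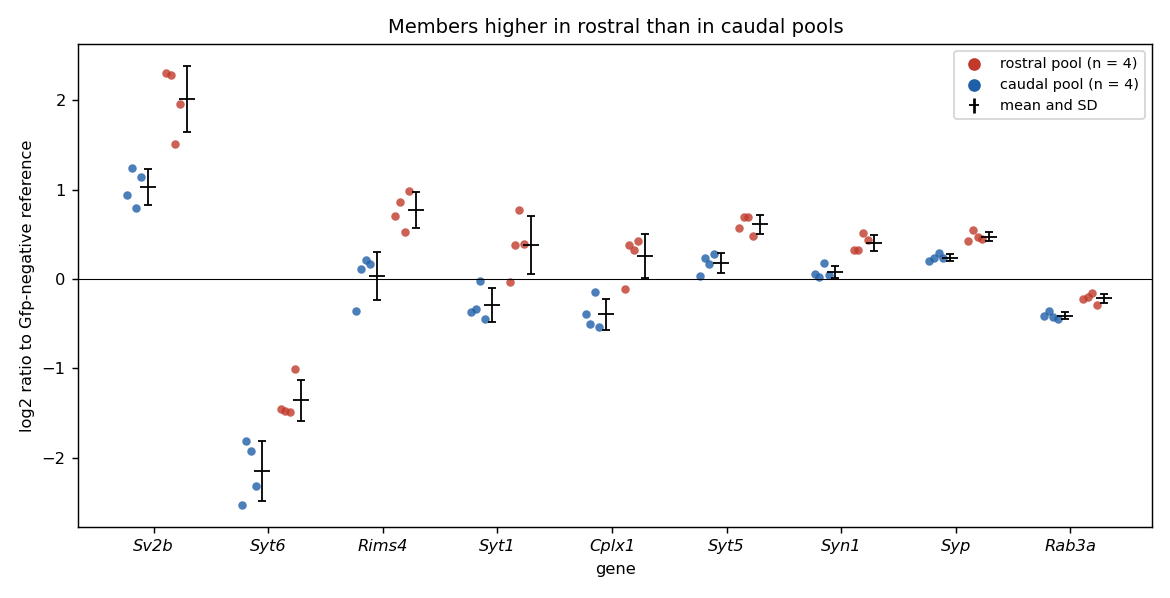
Log2 ratio to the Gfp-negative reference (y axis) of the 9 members called higher in rostral pools, 1 dot per pool (red rostral, blue caudal, n = 4 each), with the mean and SD beside each group. The groups overlap only for Syt1, where rostral pool 1 at -0.03 lies just under caudal pool 3 at -0.02, and Syt6 and Rab3a stay below 0 in every pool.

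Sv2b differed most, by 0.99 on the log2 scale (SE 0.21, 95% interval 0.53 to 1.45, 1.98-fold, adjusted p = 0.0227), from 2.01 ± 0.37 (SD, n = 4) in rostral to 1.03 ± 0.20 in caudal pools. Syt6 came next at 0.79 (SE 0.17, 0.40 to 1.17, 1.73-fold, adjusted p = 0.0277), with -1.36 ± 0.23 against -2.15 ± 0.34, so that it was depleted in both parts and less so in the rostral part. For Rims4 the difference was 0.74 (SE 0.17, 0.36 to 1.12, 1.67-fold, adjusted p = 0.0335), with 0.77 ± 0.20 against 0.03 ± 0.27. Its rostral pools stood above the reference while the caudal mean was near it.

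Syt1 had -0.03, 0.38, 0.77 and 0.39 in rostral and -0.37, -0.34, -0.02 and -0.45 in caudal pools. Apart from rostral pool 1 and caudal pool 3, which touch, the parts lie on opposite sides of the reference. The difference was 0.67 (SE 0.16, 0.31 to 1.03, 1.59-fold, adjusted p = 0.0397). Cplx1 had -0.11, 0.38, 0.32 and 0.43 in rostral and -0.39, -0.50, -0.15 and -0.54 in caudal pools. Its rostral pool 1, again the lowest of its group, was still above all caudal pools, and the difference was 0.65 (SE 0.13, 0.35 to 0.95, 1.57-fold, adjusted p = 0.0213).

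Smaller differences were the more precisely measured ones. Syt5 had 0.57, 0.70, 0.70 and 0.48 in rostral and 0.03, 0.24, 0.17 and 0.28 in caudal pools. The groups were well apart, by 0.43 (SE 0.07, 0.27 to 0.60, 1.35-fold, adjusted p = 0.00922). Syn1 differed by 0.32 (SE 0.06, 0.19 to 0.45, 1.25-fold, adjusted p = 0.0138), with 0.40 ± 0.09 against 0.08 ± 0.07. Syp had 0.43, 0.55, 0.47 and 0.45 in rostral and 0.20, 0.23, 0.29 and 0.23 in caudal pools. Both groups were tight, above the reference and did not overlap, with a difference of 0.24 (SE 0.05, 0.12 to 0.36, 1.18-fold, adjusted p = 0.0267). Rab3a differed by 0.20 (SE 0.04, 0.10 to 0.29, 1.15-fold, adjusted p = 0.0253), from -0.22 ± 0.05 to -0.42 ± 0.04.

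**Figure D3:**
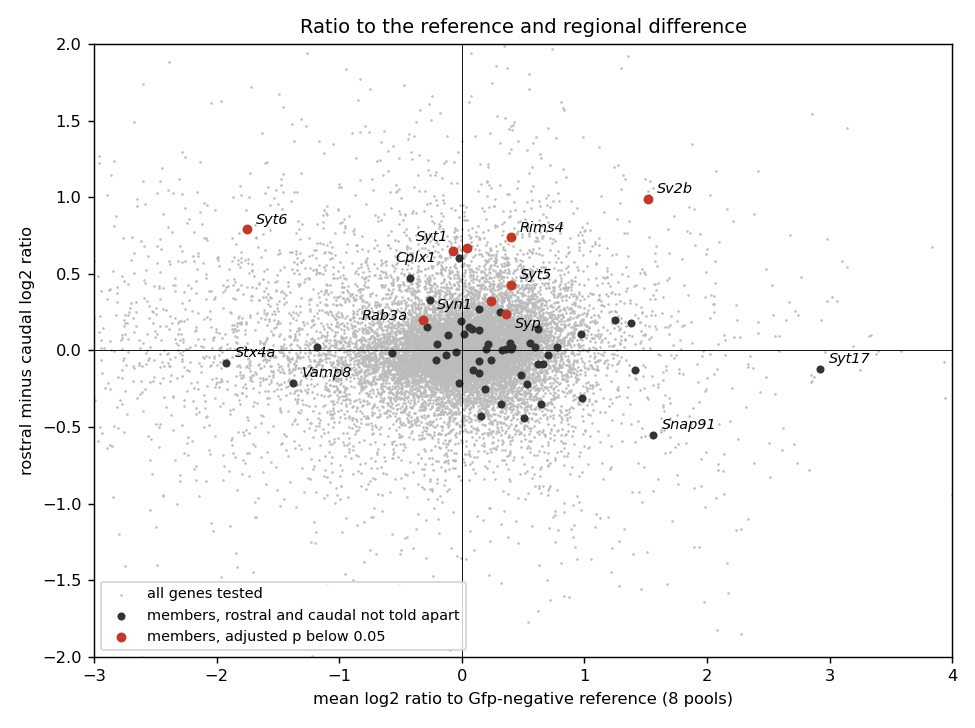
Mean log2 ratio of the 8 pools to the reference (x axis) against the rostral minus caudal difference (y axis) for all genes tested (grey), members (dark) and the 9 members called between parts (red). Genes outside the axes are not drawn. The 9 are spread along the x axis from Syt6 at -1.75 to Sv2b at 1.52, and all lie above 0 on the y axis.

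Among members not called, Stxbp5 had the largest positive difference, 0.60 (95% interval 0.21 to 0.99, adjusted p = 0.0861), and passed when rostral pool 2 was left out (0.72, adjusted p = 0.0491). Syn2, with all rostral pools above all caudal pools, was at 0.33 (0.13 to 0.53, adjusted p = 0.0615). Sv2a and Syt8 likewise had groups that did not overlap, at 0.25 (adjusted p = 0.261) and 0.13 (adjusted p = 0.595). The second annotated probe of Syn2 gave -0.03 between parts (SE 0.28, adjusted p = 0.985 in limma over probes). The largest negative differences were those of Snap91, -0.55 (-1.07 to -0.03, adjusted p = 0.242), Stxbp6, -0.44 (-0.85 to -0.03, adjusted p = 0.236), and Syt10, -0.43 (-0.90 to 0.04, adjusted p = 0.326). Stx18, whose rostral pools were all below its caudal pools, was at -0.21 (-0.38 to -0.03, adjusted p = 0.181).

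The core fusion SNAREs were not called, and their intervals hold differences as large as some that were called, such as that of Rab3a: Snap25 differed by 0.01 (-0.24 to 0.26), Vamp2 by 0.14 (-0.04 to 0.31) and Stx1a by 0.20 (-0.09 to 0.49). Of the members high in the sorted cells, Sv2b was called between parts, as given above, while Syt17 was not at -0.12 (-0.68 to 0.43), nor Syt4 at -0.13 (-0.42 to 0.16) or Rab3c at 0.11 (-0.03 to 0.26). A miss of the threshold does not show that levels are equal, and the interval of Syt17 would hold a change as large as that of Cplx1 in the opposite direction.

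How far the 9 calls hold was uneven. All 9 differences were positive under each of 21 other settings, which include each pool left out in turn. The number called fell to 2 without caudal pool 1 and 2 without caudal pool 4, to 3 without rostral pool 2 (Stxbp5 being 1 of these) and 3 without rostral pool 4, to 4 without rostral pool 3, to 5 without caudal pool 2, and to 6 without caudal pool 3 or rostral pool 1. Syt5 and Syn1 were called in all 8 of these fits. Syt6 was called in 3, Sv2b, Syt1, Cplx1, Syp and Rab3a in 2 each, and Rims4 in 1; the highest adjusted p among them was 0.106, for Syt1. Their values moved less than their calls: Sv2b stayed between 0.89 and 1.16, Rims4 between 0.61 and 0.82, and Rab3a between 0.18 and 0.22. Within the 4 arrays of either row of the slide, 2 pools of each part, no member reached an adjusted p below 0.05 in limma, with 12 and 11 at an unadjusted p below 0.05, against 12.8% and 13.1% of all genes. Over all genes 0 were called in row 1, and 62 were higher and 45 lower in row 2; Syt5 was at 0.50 and 0.37, and Syn1 at 0.28 and 0.36.

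By scaling, median centring kept 6 of the 9 calls, with Syn1, Syp and Rab3a at an adjusted p of 0.0676, 0.177 and 0.198, and the processed signals kept 7, without Rims4 (1.23, adjusted p = 0.0895) and Syt1 (0.65, adjusted p = 0.0677). Without an intensity trend in the variance, 4 were called (Sv2b, Rims4, Cplx1 and Syt5).

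**Figure D4:**
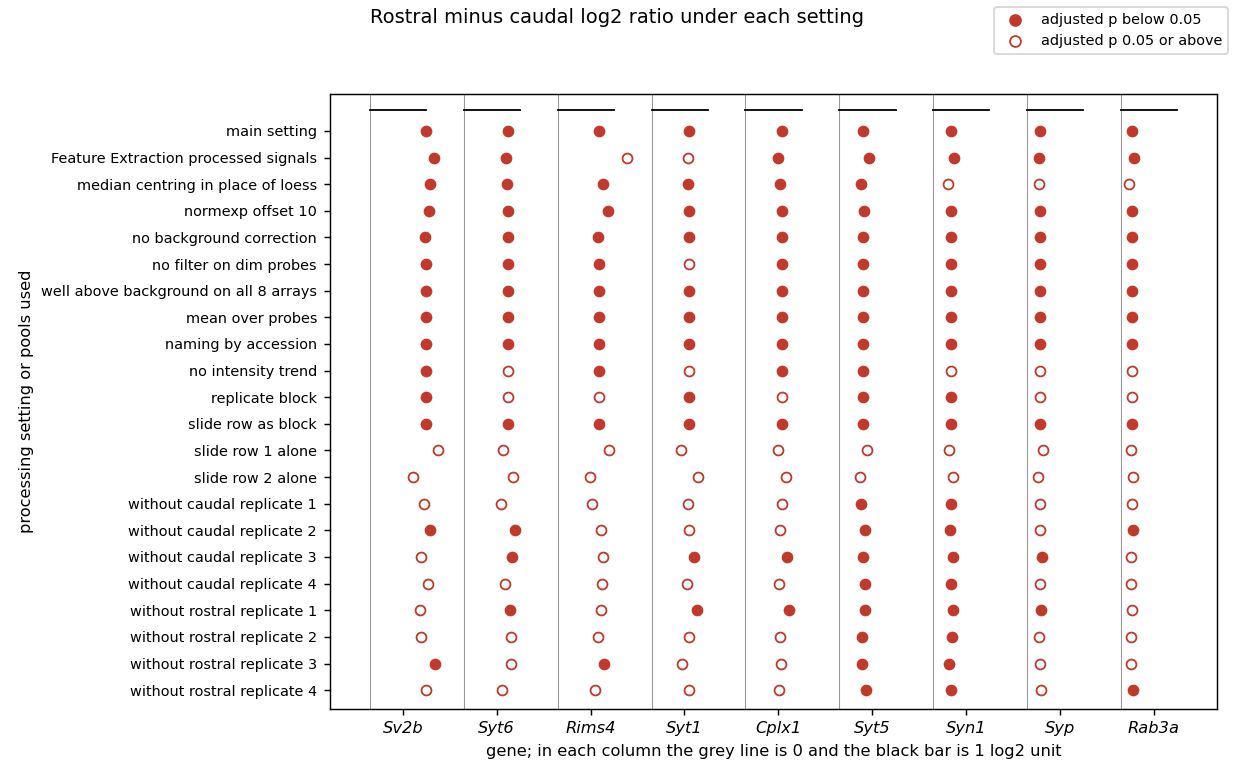
Rostral minus caudal log2 ratio of the 9 members (columns, each with its own 0 line in grey and a bar of 1 log2 unit) under the main setting and 21 others (rows). Filled dots have an adjusted p below 0.05. All dots lie to the right of 0; Syt5 and Syn1 are filled in every fit that leaves out 1 pool, and no dot is filled for either slide row alone.

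Markers of other cells also differed between the parts. Gad2, an enzyme of GABA synthesis, was 1.09 higher in rostral pools (SE 0.25, adjusted p = 0.0359), Nefl, a neurofilament of maturing neurons, 1.05 higher (SE 0.17, adjusted p = 0.00843) and Isl1, a transcription factor gene of motor and other neurons, 0.65 higher (SE 0.12, adjusted p = 0.0125). Tal2 and Tal1, of midbrain GABAergic precursors, were at -1.79 and -1.01, Pou4f2, of the glutamatergic and red nucleus list, at -2.78, and the serotonergic Fev at -0.82, all lower in rostral pools. Of the 7 GABAergic markers, 1 was called higher and 2 lower, and their summed Cy3 signal ran from 20700 to 31700 intensity units in rostral and 16000 to 29300 in caudal pools. For 10 pan-neuronal markers, 1 of which (Snap25) is a member, 1 was called higher (Nefl) and 1 lower (Tubb3, at -0.39), with sums of 554000 to 572000 and 526000 to 565000. The dopaminergic markers differed as well: of 13, 1 was called higher in rostral pools and 4 lower (3.20% and 2.57% of all genes). Their differences ran from -0.90 to 0.57. Summed signals overlapped between the parts for all 11 lists but the serotonergic one. That list was at 964 to 1280 in rostral and 1290 to 1950 in caudal pools. Sums are of linear signal, so bright genes weigh most and an overlap can hide differences of single genes. Slc17a7, Tph2, Notch1 and Rgs5 were not well above background in any pool. The part of these cells, or of neuronal maturity, in the 9 differences was not tested.

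Other probes of the same genes were used as a check on the brightest. Besides the 79 annotated probes, 23 further probes carry an accession of a member in the scanner files, and 25 members have more than 1 probe. Of the 28 other probes that were well above background in at least 4 pools, representing 23 members, 19 had the same sign as the brightest and 4 lay over 1 log2 unit away. The sharpest disagreement was within Cplx2, the main complexin of many forebrain synapses. Its chosen probe gave 0.36, further probes 0.14, 0.54 and 1.15, and another annotated probe -0.69. That last probe read -1.04 ± 0.20 (SD, n = 4) for rostral and -0.35 ± 0.18 for caudal pools, a difference of -0.69 (adjusted p = 0.0174 over probes), while the other 4 differed between parts by -0.09 to 0.04. With the mean over annotated probes, Cplx2 came to -0.17 against the reference and -0.34 between parts, both called.

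Both probes of Stx4a were called lower. Stx17 was at 0.62, -0.52 and 0.77, so that its direction, like that of Stxbp2, rests on the probe. Opposite signs were also seen for Snap29 (0.33 and -0.36), Stxbp4 (0.21 and -0.21), Stx8 (-0.02 on its dim chosen probe and 0.12) and Syt3 (-0.01 and 0.13), besides Vamp4. Of the 9 regional members only Syt6 had a second bright probe, which gave -1.93 against the reference and 0.60 between parts (adjusted p = 0.703), with a wider spread in both groups (SD 0.61 and 1.13 against 0.23 and 0.34). Stx2, dim by its chosen probe, was at -0.39 by a further probe that was bright in all 8 pools (adjusted p = 0.000178). Rab3c was above the reference by all 3 of its probes, at 0.97, 1.29 and 1.44.

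**Figure D5:**
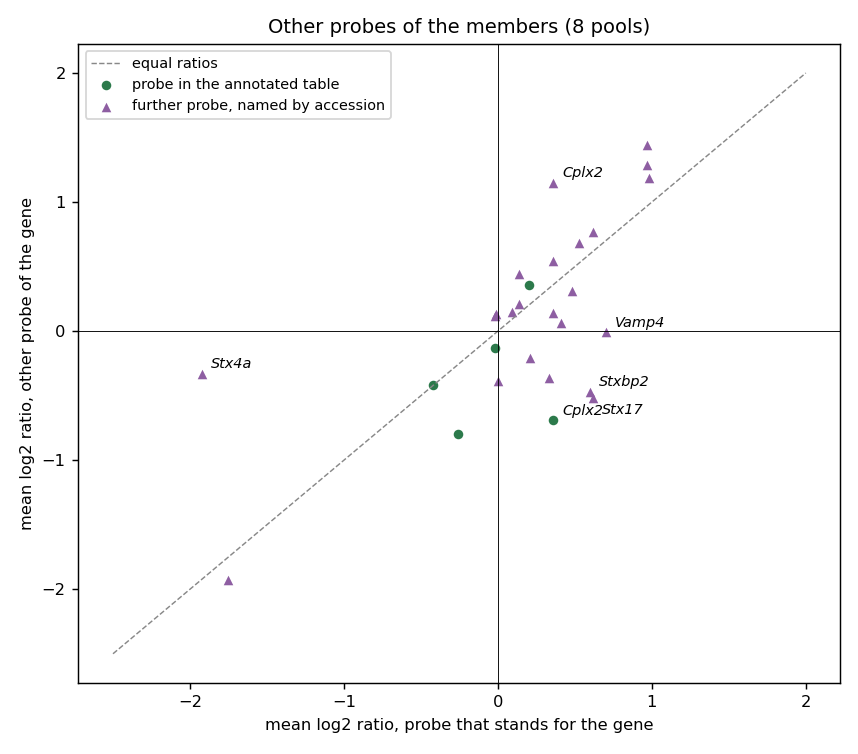
Mean log2 ratio to the reference of the probe that stands for a member (x axis) against that of its other probes (y axis), for other probes well above background in at least 4 pools; circles are annotated probes, triangles further probes named by accession, and the dashed line marks equal ratios. Stx4a (-1.92 and -0.33), Stxbp2 (0.60 and -0.47), Stx17 (0.62 and -0.52) and a probe of Cplx2 (0.36 and -0.69) are the 4 points more than 1 log2 unit above or below the line.

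Genes of the same pathway outside the named families were taken from a list of 75, of which 74 were tested (Rimbp2 was too dim). Against the reference 46 were higher and 14 lower (34.2% and 35.9% of all genes), with a median of 0.27. The active-zone and priming genes gave 15 higher and 0 lower of 17 (16 at an unadjusted p below 0.05 in limma), among them Ppfia4, a liprin scaffold, at 1.29 (SE 0.04, adjusted p = 2.3e-09). Endocytosis genes gave 14 higher and 3 lower of 17, other SNAREs and their regulators 8 and 5 of 20 (among them Napepld, a phospholipase, and Syvn1, a ubiquitin ligase, which are neither and were not called), other vesicle membrane proteins 6 and 3 of 11, and SNARE recycling genes and chaperones 3 and 3 of 9. Slc18a2, the vesicular monoamine transporter, was at 4.94 (SE 0.05, adjusted p = 1.1e-12) and the uncoating chaperone Hspa8 at -0.93 (SE 0.03, adjusted p = 1.1e-09). For the whole list, median centring gave 53 higher and 7 lower.

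Between the parts, 4 of the 74 were higher in rostral and 3 lower (3.20% and 2.57% of all genes). Pclo, the active-zone scaffold piccolo, was 0.82 higher in rostral pools (SE 0.10, adjusted p = 0.00267), with 0.68 ± 0.11 against -0.14 ± 0.19; a brighter probe named by accession gave 0.15 (adjusted p = 0.459), and the mean over probes put its ratio to the reference at -0.04 in place of 0.27. Dnm1, the neuronal dynamin, was 0.40 higher (SE 0.05, adjusted p = 0.00299). Ston2, an endocytic adaptor that sorts synaptotagmin, was at -1.32 (SE 0.15, adjusted p = 0.0019), and Slc18a2 at -0.56 (SE 0.09, adjusted p = 0.00825), both lower in rostral pools. The other 3, named after their values were seen, were Cadps2, a priming factor of dense-core vesicles, at 0.93, Rab27b, a secretory GTPase, at 0.71, and gamma-synuclein, Sncg, at -0.70. The 7 calls fell to 4 without caudal pool 3 and to 4 without rostral pool 4.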

How the data were processed

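Each array gave spot intensities of 2 channels, deposited by the authors as scanner output, with version 10.7.3.1 of Agilent's Feature Extraction given in the file headers. The median intensities and local backgrounds were used; they carry no normalization. The scanner's processed intensities, used as an alternative, were background-subtracted and dye-normalized by the authors' software, per the file headers. The submitters' processing notes also list RMA, without saying what it was used for. Well-above-background and outlier marks are 0 or 1 scores in the deposited scanner files. Gene symbols came from a deposited annotation of the whole series; the 8 value columns beside it match no sample label and were not used.

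In R 4.3.3 with limma 3.58.1, background was corrected by normexp (offset 50), each array normalized by loess with control and outlier spots at weight 0, and spots of a probe averaged into the log2 ratio of Cy3 over Cy5. The brightest annotated probe stood for a gene. A gene was tested against the reference if well above background in either channel on at least 4 of 8 arrays, and between parts if so in the sample channel. Limma's eBayes with an intensity trend and no block was fitted over all genes; p-values are 2-sided and adjusted by Benjamini-Hochberg, with calls at an adjusted p below 0.05. Scripts were tested on simulated data. Alternatives covered signals, normalization, background, filters, probes, naming, variance, blocks, slide rows and each pool left out.

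Any member may be named. Values per pool are given for members called between parts and for the highest and lowest of each role; of the pathway list, up to 4 genes with the smallest p per comparison are named, plus those said to be named after their values were seen, as were Stxbp5 and the low calls lost without a pool. The members and the lists were chosen with earlier results of these data known, so no count here is independent support. A few genes are included in the counts and are not reported here by name. No protein table was used, and promoters of 16 members are not shown or counted.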

Additional observations from a re-analysis of the deposited data

Results flagged for a closer look

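In 8 of 124 groups of 4 pools (62 members in 2 parts), a pool stood apart from the other 3 by Dixon's criterion; by chance about 1 group in 20 does so. Rims4 was at -0.36 in caudal pool 1 against 0.11 to 0.21 in the others, and Syt6 at -1.01 in rostral pool 4 against -1.49 to -1.46; both are among the genes called between parts, and without the pool named their differences between parts were 0.61 (adjusted p = 0.0705) and 0.67 (adjusted p = 0.065) in limma. The others were Cplx4 in caudal pool 4 (0.80 against 0.66 to 0.68), Stxbp4 in caudal pool 4 (0.47 against 0.07 to 0.10), Sv2c in rostral pool 4 (0.32 against -0.04 to 0.00), Syt3 in rostral pool 1 (0.51 against -0.07 to -0.03), Vamp1 in rostral pool 3 (0.02 against 0.34 to 0.39) and Vamp2 in caudal pool 1 (0.14 against -0.05 to -0.02).

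The ratio to the reference differed between the parts by limma's test of the difference for Sv2b (0.99), Syt6 (0.79), Rims4 (0.74), Syt1 (0.67), Cplx1 (0.65), Syt5 (0.43), Syn1 (0.32), Syp (0.24) and Rab3a (0.20), all higher in rostral pools.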

How the results depend on the processing

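Among the members and pathway genes named here, called values changed sign, or values not called became called on the other side of 0, as follows. Against the reference, median centring put Cplx1 at 0.17, Stx18 at 0.19, Stxbp5 at 0.30, Syn2 at 0.01 and Vamp7 at 0.31; the mean over probes put Cplx2 at -0.17 and Pclo at -0.04; and naming by accession, which takes another probe, put Stxbp2 at -0.47. Between the parts, the mean over probes put Cplx2 at -0.34. The cause was not tested for the scaling settings. The 46 members called against the reference ranged from 38 to 52 over all settings. The 43 called in caudal pools fell to 26 with slide row 1 alone, which has fewer pools. The 9 calls between parts came to 4 without an intensity trend, 0 with slide row 1 alone and 0 with slide row 2 alone (no member of 62, and over all genes 0 in row 1 and 62 higher with 45 lower in row 2; 12 and 11 members at an unadjusted p below 0.05), and 2 to 6 with 1 pool left out. The 7 pathway calls between parts came to 0 with either slide row alone and 4 to 7 with 1 pool left out. The pools of the 2 parts share numbers in their labels, but same-numbered pools did not deviate together (correlations of -0.059 to 0.021). These correlations cannot tell whether same-numbered pools came from the same embryos. With the replicate number as a block, 4 members and 4 pathway genes were called between parts. Over all genes 345 were then higher and 271 lower, against 559 and 449 without the block. Every setting planned was run. Signal over background limits Syt14, Syt2, Stx19 and Syt12, and for Stx2 and Stx8 the annotated probe. Among tested members, the reference channel was also dim for the chosen probes of Syt7, Syt8, Rims2 and Rims1. These were well above background there on 1, 2, 4 and 6 of 8 arrays.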
